A study of Mus musculus with 20 samples.

Results

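The 10 genes described here code for receptors and signalling proteins through which hypothalamic neurons read circulating leptin, ghrelin, insulin, GLP-1 and amylin. They are the receptor genes Lepr, Insr, Ghsr, Glp1r and Calcr, the signal carriers Jak2, Sh2b1 and Stat3, and the inhibitors Socs3 and Ptpn1. They were chosen by symbol, with no rule on measured values but with earlier results of these data known. All 10 were found among the 55471 genes of the count table through their Ensembl identifiers in GRCm38. All 10 passed the filter on low counts, beside 17893 genes in all. The samples were hypothalamus slices of wild type C57BL/6 mice in 3 groups. In 6 libraries the mice ate a risperidone diet under pair-feeding, in which food is held to the amount eaten by another group, in 7 they ate the risperidone diet ad libitum, and in 7 they ate a control diet ad libitum. Risperidone, a drug against psychosis of the atypical class, acts on dopamine and serotonin receptors and is known for weight gain. The risperidone diet lasted 4 weeks. By the labels, weights at collection were like those of the control-diet mice, in wording that leaves unclear whether this holds for both feeding conditions. No pair-fed group on control diet was among the libraries, so pair-fed risperidone against control changes diet and feeding together. The sources used here give neither sex nor age, and the labels do not say that each library is a separate mouse, so that p-values measure the spread between these libraries, which may be in part technical.

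Leptin from fat cells binds the long form of the receptor coded by Lepr, which carries the kinase JAK2. JAK2, with the adaptor SH2B1 enhancing its activity, phosphorylates the transcription factor STAT3, and STAT3 induces Socs3, whose product blocks the receptor in a feedback loop. PTP1B, the phosphatase coded by Ptpn1, removes phosphate from JAK2 and from the insulin receptor, and thus damps both hormones. Ghrelin from the stomach acts through the G-protein-coupled receptor GHSR on feeding neurons, GLP-1 acts through GLP1R to restrain food intake, and the calcitonin receptor coded by Calcr is the core of the amylin receptors. In the hypothalamus the receptors for leptin, ghrelin, GLP-1 and amylin sit in small sets of neurons, above all in the arcuate, paraventricular and other medial nuclei.

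Total counts were between 17316043 and 18606543 in 19 libraries and 9748005 in ad libitum risperidone library 3. The share of ribosomal RNA and genes like it was 22.4% in that library and 2.26% to 5.19% in the other 19. Ad libitum risperidone library 1 had a summed level of 4045 CPM (counts scaled to a common library total, with TMM factors from a trimmed mean of ratios between libraries) over 11 marker genes of cortex, hippocampus and amygdala, against 909 CPM in ad libitum library 2 and 572 to 736 CPM in the others. Choroid plexus markers summed to 219.5 CPM in ad libitum library 2 and to 34.9 to 94.1 CPM in the other 19. Markers of the paraventricular and supraoptic nuclei were lowest in pair-fed library 3, at 118 CPM. Values without ad libitum libraries 1 and 3 stand beside several of the results. Of the 12 hypothalamus markers, which include Avp, Oxt, Hcrt, Pmch, Agrp and Pomc, all had counts in all 20 libraries. Kiss1 of the arcuate list and Lhb of the pituitary list were at 0 in 20 of 20 libraries.

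Per exon length, the signal carriers and Calcr were the most abundant of the 10 genes and the leptin and ghrelin receptor genes among the least abundant. Over the 20 libraries Sh2b1 averaged 20.9 ± 1.30 RPKM, which is CPM per kilobase of exon (SD, n = 20). Stat3 followed with 9.97 RPKM, Calcr with 8.82, Jak2 with 8.05 and Ptpn1 with 7.35 RPKM. Insr averaged 4.25 RPKM, Glp1r 3.22, Ghsr 1.74, Socs3 1.23 and Lepr 0.867 RPKM. The ranges over libraries did not overlap between Sh2b1 and Stat3, between Ptpn1 and Insr, or between Insr and Glp1r. Glp1r was above Ghsr in 20 of 20 libraries, although their ranges overlapped. The other neighbours in this order overlapped in range, and the order held in 15 of 20 libraries for Ghsr over Socs3, in 17 for Socs3 over Lepr, in 17 for Calcr over Jak2, in 18 for Stat3 over Calcr and in 19 for Jak2 over Ptpn1. The counts sum all transcript forms of a gene, so the long, signalling form of Lepr is not told apart from its short forms.

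**Figure D1:**
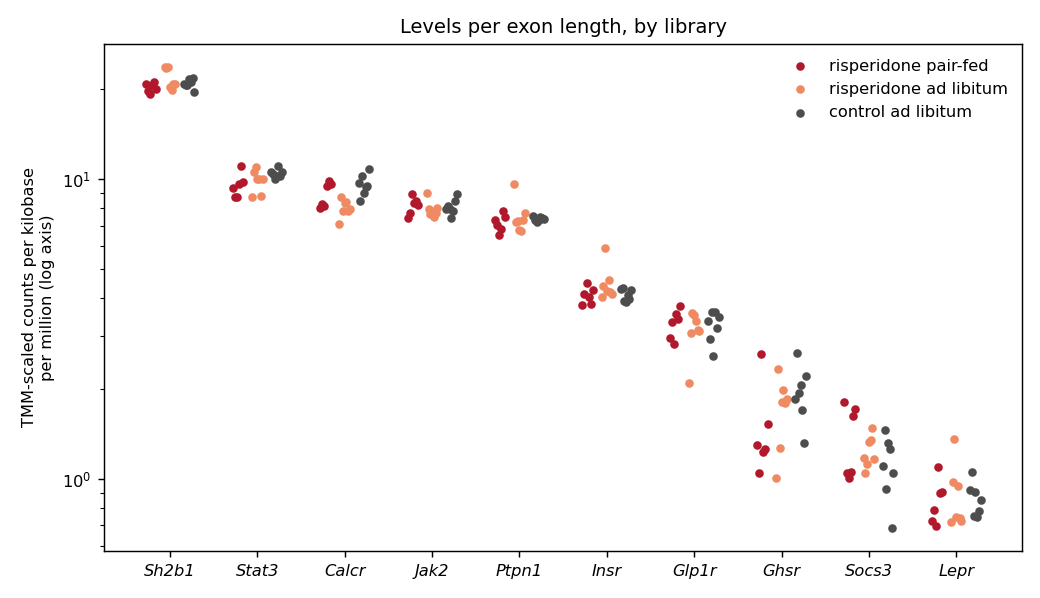
Level of each gene as CPM per kilobase of exon, or RPKM (log axis), in each of the 20 libraries, with pair-fed risperidone, ad libitum risperidone and control libraries side by side. Sh2b1 stands above the rest at a mean of 20.9 RPKM and Lepr is lowest at 0.867 RPKM.

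None of the 10 genes passed the test in a comparison. Their log2 fold changes ran from −0.39 (Ghsr) to 0.30 (Socs3) in pair-fed risperidone against control. In ad libitum risperidone against control they ran from −0.25 (Calcr) to 0.16 (Socs3). With edgeR's quasi-likelihood test, 0 of 10 had an adjusted p under 0.05 in pair-fed risperidone against control (0.486% of all genes did), 0 of 10 in ad libitum risperidone against control (0.0615% of all genes), 0 of 10 in pair-fed against ad libitum risperidone (0.397%) and 0 of 10 with both risperidone groups averaged against control (0.330%). An unadjusted p under 0.05 was found for 1 of 10 in pair-fed risperidone (Stat3) against 6.66% of all genes. It was found for 1 of 10 in ad libitum risperidone (Calcr) against 13.1% of all genes, for 2 of 10 between the risperidone groups (Calcr and Sh2b1) against 13.5%, and for 2 of 10 in the mean of both (Calcr and Stat3) against 7.82%. DESeq2 called 1 of the 10, Calcr, in ad libitum risperidone against control, where it called 112 genes in all and edgeR 11. It called 0 of the 10 in the other comparisons. In each comparison limma-voom called 0 of 10, with 51 genes in all in ad libitum risperidone against control. The median log2 fold change of the 10 genes was −0.03 in pair-fed risperidone, −0.01 in ad libitum risperidone, −0.04 between the risperidone groups and −0.01 in the mean of both, beside medians over all genes of 0.00, 0.01, −0.00 and 0.01. Fold changes lay below 0 for 7 of 10 in pair-fed risperidone (48.5% of all genes), 5 of 10 in ad libitum risperidone (47.1%), 6 of 10 between the risperidone groups (51.6%) and 6 of 10 in the mean of both (46.6%). The groups overlapped in level for each of the 10 genes in each comparison, so that 0 of 10 stood apart, beside 1.20%, 0.330%, 0.632% and 0.0671% of all genes in the same order of comparisons. The first and second of these comparisons share their 7 control libraries.

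**Figure D2:**
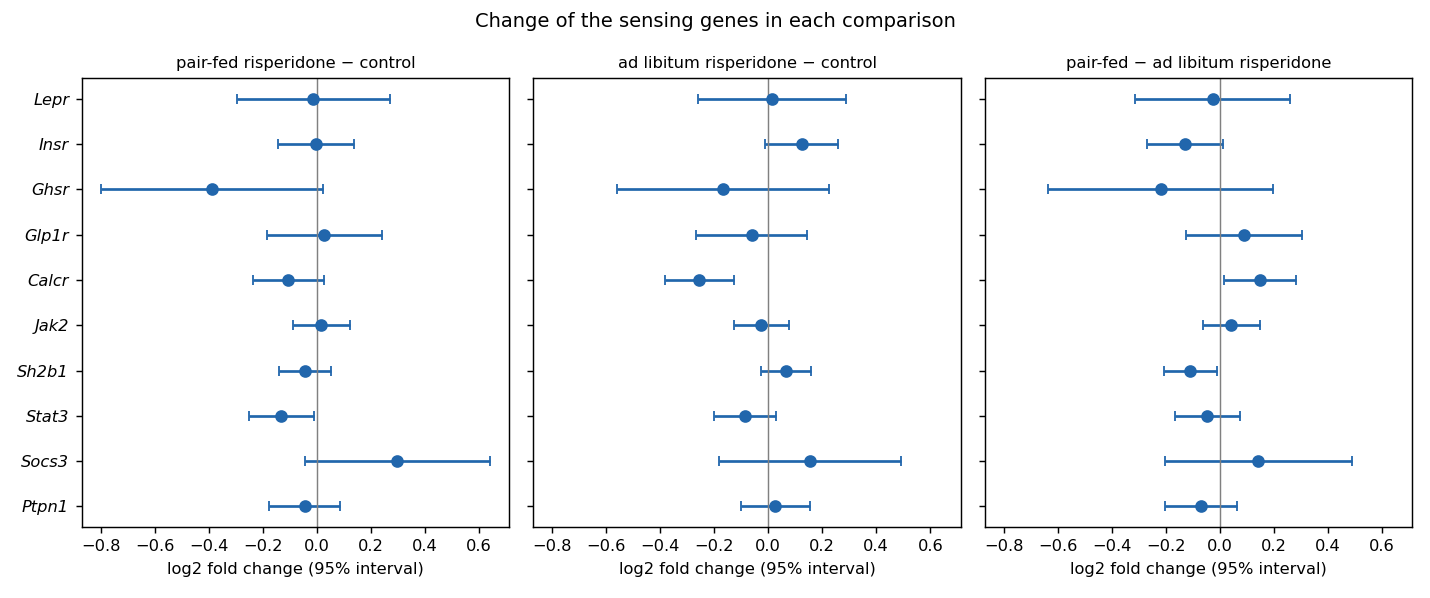
Log2 fold change of each gene with its 95% interval (points and bars, edgeR) in pair-fed risperidone against control, ad libitum risperidone against control and pair-fed against ad libitum risperidone. The interval of Calcr in ad libitum risperidone, −0.38 to −0.13, lies farthest from 0, and those of Ghsr and Socs3 are the widest.

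Calcr came nearest to the threshold. The gene (ENSMUSG00000023964) spans bases 3685680 to 3764714 of chromosome 6 (GRCm38, minus strand). Its level ran from 31.3 CPM through a median of 34.6 to 38.6 CPM in pair-fed risperidone, from 27.7 through 31.0 to 34.2 CPM in ad libitum risperidone and from 33.0 through 37.0 to 42.3 CPM in control. All 7 ad libitum risperidone libraries lay below the control mean and 6 of them below every control library, while the pair-fed libraries formed 3 low values (31.3, 31.9 and 32.2 CPM) below every control library and 3 within the control range (37.1, 37.7 and 38.6 CPM). In ad libitum risperidone against control its log2 fold change was −0.25 (SE 0.0617, 95% interval −0.38 to −0.13, unadjusted p = 0.000444, adjusted p = 0.128, edgeR), rank 62 of 17893 genes by p. Without ad libitum libraries 1 and 3 it was −0.22 with an adjusted p of 0.130 (edgeR), and over the 27 other settings the adjusted p lay between 0.0333 and 0.228, under 0.05 with DESeq2 alone. In pair-fed risperidone against control the value was −0.11 (95% interval −0.24 to 0.03, adjusted p = 0.864, edgeR). Between the risperidone groups it was 0.15 (95% interval 0.02 to 0.28, adjusted p = 0.326, edgeR). In bulk tissue fewer cells that express a gene and less RNA per cell cannot be told apart.

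Markers of several regions and cell types had values away from 0 in this comparison, with no single marker of the lists named here past the test. The summed level of the 12 hypothalamus markers ran from 1769 to 2427 CPM in pair-fed risperidone, from 1408 to 2376 CPM in ad libitum risperidone and from 2239 to 2705 CPM in control. Between ad libitum risperidone and control, 12 of 12 had a log2 fold change below 0, with a median of −0.38, and 0 passed the test in edgeR, 8 of them at an unadjusted p under 0.05 (13.1% of all genes). Without ad libitum libraries 1 and 3, of which library 1 was the lowest at 1408 CPM, 11 of 12 were below 0 with a median of −0.29. In pair-fed risperidone against control 10 of the 12 were below 0, with a median of −0.18. In ad libitum risperidone against control, over all libraries, the 8 tested arcuate markers had a median of −0.11. The 7 of the paraventricular and supraoptic nuclei had −0.40 there. These lists share genes with the hypothalamus list, such as Agrp and Pomc, and Avp and Oxt. In the same comparison medians were −0.27 for the 10 tanycyte and ependyma markers and −0.36 for the 8 markers of pericytes and fibroblasts. The 10 tested markers of cortex, hippocampus and amygdala were all above 0, with a median of 1.16, and of 0.27 without ad libitum libraries 1 and 3. The part of these lists in the Calcr values was not tested. Across the 20 libraries with the group means removed, Calcr had a Pearson r of 0.657 with the mean log2 level of the hypothalamus markers (permutation p = 0.00122, adjusted p = 0.0427 over 140 gene and marker list pairs) and a Spearman rho of 0.612 (permutation p = 0.00648, adjusted p = 0.151). Without the 2 libraries farthest from the median r was 0.549. These pairs were examined after the values had been seen, and 4 of the 140 passed with Pearson's r and 2 with Spearman's rho.

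The promoter of Calcr at the outer start of the gene is shown because this was the gene with the smallest p, and that of Socs3 because it is the direct STAT3 target among the 10. Each holds 250 bases before to 50 bases after the annotated start (RefSeq, GRCm38), 5′ to 3′ on the minus strand. The Calcr promoter lies at chr6:3764664-3764963 and the Socs3 promoter at chr11:117969317-117969616, and capitals mark the letters TTCNNNGAA, the core of a STAT binding site.
Calcr: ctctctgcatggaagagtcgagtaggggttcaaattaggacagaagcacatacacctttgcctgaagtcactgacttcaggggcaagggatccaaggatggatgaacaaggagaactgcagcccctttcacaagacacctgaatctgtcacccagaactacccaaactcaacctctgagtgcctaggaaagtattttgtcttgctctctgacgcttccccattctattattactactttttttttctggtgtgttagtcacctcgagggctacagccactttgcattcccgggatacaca
Socs3: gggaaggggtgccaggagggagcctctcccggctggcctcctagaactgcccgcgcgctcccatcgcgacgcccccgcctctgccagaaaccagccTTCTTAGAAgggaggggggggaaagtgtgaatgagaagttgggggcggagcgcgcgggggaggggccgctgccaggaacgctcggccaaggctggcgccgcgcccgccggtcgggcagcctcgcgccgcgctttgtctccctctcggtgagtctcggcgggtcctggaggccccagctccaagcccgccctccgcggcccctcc
Of the 10 genes 9 had an entry among the RefSeq promoters, with 12 promoters in all, and Insr had none. The STAT letters, which read the same on both strands, were found in 1 of the 12, that of Socs3, as TTCTTAGAA at position −154 from the start. They occur in 8.3% of all 32851 mouse promoters of this length. The Socs3 window lies inside the gene span of Socs3 in GENCODE M21, 117966079 to 117970047, so the position holds for the RefSeq start only. The FOXO letters TGTTTAC, searched on both strands, were in 0 of 12 and in 3.65% of all promoters, and the glucocorticoid receptor motif was in 0 of 12 and in 3.11% of all.

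Lepr, the leptin receptor gene (ENSMUSG00000057722, chromosome 4, 101717404 to 101815352, plus strand), was read in 68 to 142 counts per library. It had 4.91, 5.95 and 7.72 CPM (lowest, median and highest) in pair-fed risperidone, 5.08, 5.26 and 9.58 CPM in ad libitum risperidone and 5.25, 5.98 and 7.46 CPM in control. The groups overlapped throughout, and the highest value was that of ad libitum library 3. Its change on the log2 scale was −0.01 (95% interval −0.29 to 0.27) in pair-fed and 0.01 (−0.26 to 0.29) in ad libitum risperidone against control. Between the risperidone groups it was −0.03 (−0.31 to 0.26). Differences of a size inside these intervals remain possible.

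Ghsr, the ghrelin receptor gene (ENSMUSG00000051136, chromosome 3, 27371351 to 27378010, plus strand), was lower on average in both risperidone groups, within a wide spread. It had 4.64, 5.66 and 11.6 CPM in pair-fed risperidone, 4.47, 8.03 and 10.3 CPM in ad libitum risperidone and 5.85, 8.58 and 11.7 CPM in control. Of the 6 pair-fed libraries 4 lay below every control library, 1 lay at 6.75 CPM, and library 3 lay near the top of the control range. The log2 fold change in pair-fed risperidone against control was −0.39 (SE 0.198, 95% interval −0.80 to 0.02, adjusted p = 0.781, edgeR). It ranged from −0.62 to −0.30 over 27 other settings, where the lowest adjusted p was 0.167 (edgeR and the other tools). For the ad libitum group it was −0.17 (95% interval −0.56 to 0.23), and −0.01 without ad libitum libraries 1 and 3. Between libraries of a group Ghsr varied more than the other 9 genes, with a biological coefficient of variation of 23.8% against 11.3% over all genes tested.

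Insr, the insulin receptor gene (ENSMUSG00000005534, chromosome 8, 3122061 to 3279617, minus strand), averaged 56.4 ± 3.72 CPM (SD, n = 6) in pair-fed risperidone, 62.0 ± 8.80 CPM (SD, n = 7) for risperidone fed ad libitum, against 56.6 ± 2.63 CPM in control libraries (SD, n = 7). The higher mean of the ad libitum group came with library 3 at 81.1 CPM, while the other 6 lay between 55.6 and 63.3 CPM. Its log2 fold change was 0.12 (95% interval −0.01 to 0.26, adjusted p = 0.415, edgeR) in ad libitum risperidone against control and 0.07 (−0.02 to 0.16) without libraries 1 and 3. In pair-fed risperidone against control it was −0.00 (95% interval −0.14 to 0.14).

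Glp1r, the GLP-1 receptor gene (ENSMUSG00000024027, chromosome 17, 30901817 to 30940791, plus strand), had nearly the same level in the 3 groups. It averaged 19.2 ± 2.10 CPM (SD, n = 6) in pair-fed risperidone, 18.2 ± 2.89 CPM (SD, n = 7) for risperidone fed ad libitum, against 18.9 ± 2.24 CPM in control libraries (SD, n = 7). The lowest of the 20 values, 12.2 CPM, was that of ad libitum library 1, the library with the high cortex markers. The log2 fold change was 0.03 (95% interval −0.18 to 0.24) in pair-fed and −0.06 (−0.27 to 0.14) in ad libitum risperidone against control, and −0.00 in ad libitum risperidone without libraries 1 and 3.

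**Figure D3:**
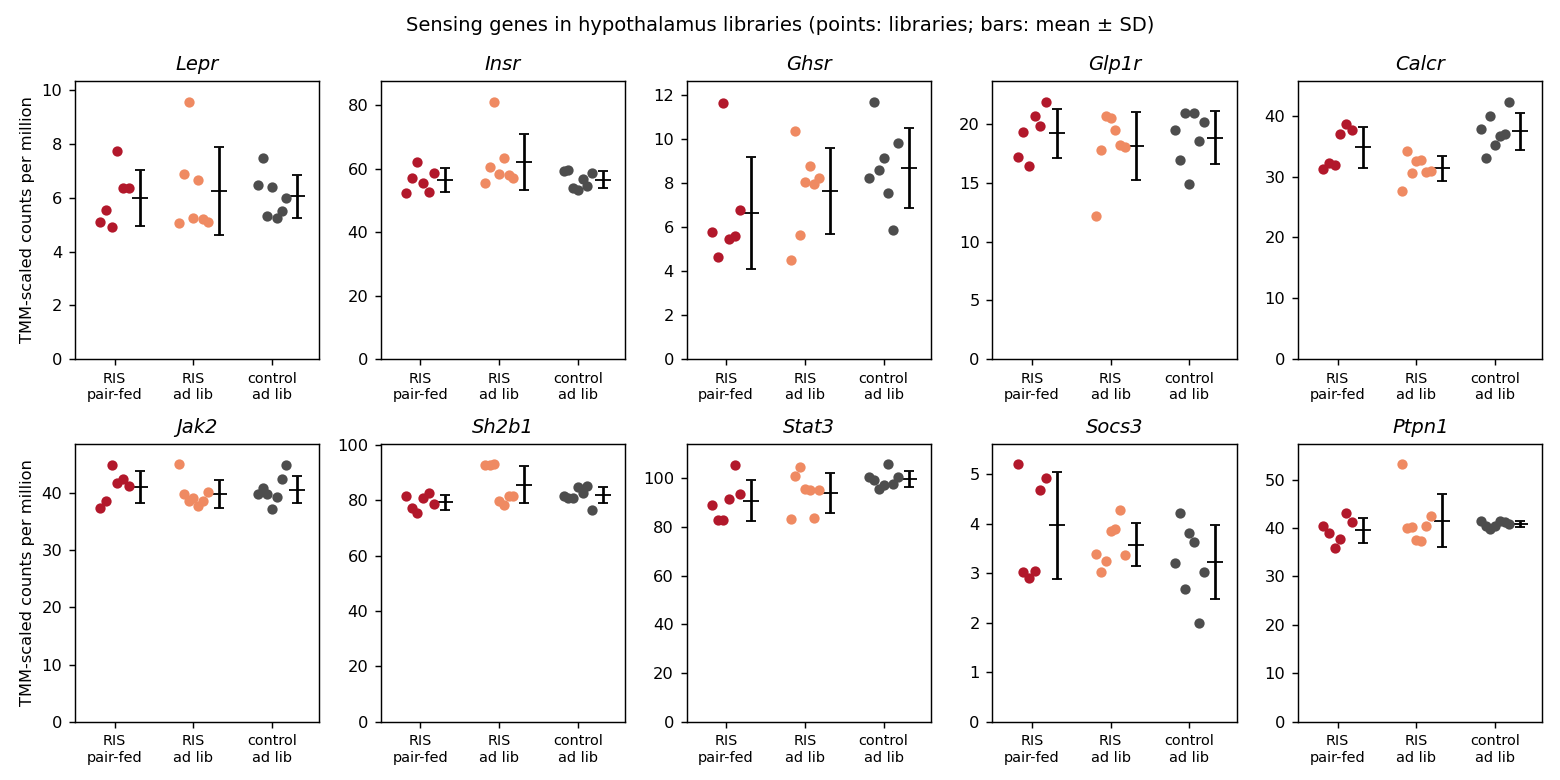
Level of each gene in CPM in every library (points) with the mean and SD beside each group (bars), for pair-fed risperidone, ad libitum risperidone and control. The ad libitum Calcr values, 27.7 to 34.2 CPM, sit lowest of the 3 groups, and single high points are seen for Ghsr in pair-fed risperidone (11.6 CPM) and for Insr (81.1), Lepr (9.58) and Ptpn1 (53.2 CPM) in ad libitum risperidone.

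Among the signal carriers, Stat3, the transcription factor of the pathway (ENSMUSG00000004040, chromosome 11, 100885098 to 100939540, minus strand), had lower means in both risperidone groups, and the test was not passed. It had 82.9, 90.2 and 106 CPM in pair-fed risperidone, 83.1, 95.1 and 105 CPM in ad libitum risperidone and 95.6, 99.4 and 106 CPM in control. Of the pair-fed libraries 5 of 6 lay below every control library, and of the ad libitum libraries 5 of 7. Among the latter, libraries 4, 5 and 7 at 95.4, 95.1 and 95.1 CPM were close to the lowest control value of 95.6 CPM. The control values were closer together (SD 3.27 CPM) than those of the pair-fed (8.38) and ad libitum groups (8.07 CPM). The log2 fold change was −0.13 (SE 0.0579, 95% interval −0.25 to −0.01, unadjusted p = 0.0328, adjusted p = 0.682, edgeR) in pair-fed risperidone against control. It was −0.09 (95% interval −0.20 to 0.03, adjusted p = 0.529, edgeR) in ad libitum risperidone and −0.11 (−0.21 to −0.01, adjusted p = 0.587) in the mean of both groups. Stat3 shares 72 exon bases, 0.756% of its exons, with Stat5a on the opposite strand, and the strand setting of the counting is not given in the sources used here.

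Jak2 and Sh2b1 had narrow intervals, which held 0 in both risperidone groups against control. Jak2, the kinase bound to the leptin receptor (ENSMUSG00000024789, chromosome 19, 29251828 to 29313080, plus strand), averaged 41.1 ± 2.73 CPM (SD, n = 6) in pair-fed risperidone, 39.9 ± 2.43 CPM (SD, n = 7) for risperidone fed ad libitum, against 40.6 ± 2.44 CPM in control libraries (SD, n = 7). On the log2 scale it differed by 0.02 (95% interval −0.09 to 0.12) in pair-fed and −0.03 (−0.13 to 0.08) in ad libitum risperidone against control. Sh2b1, the adaptor that enhances JAK2 (ENSMUSG00000030733, chromosome 7, 126466994 to 126475424, minus strand), averaged 79.3 ± 2.77 CPM in pair-fed risperidone (SD, n = 6), 85.6 ± 6.78 CPM in ad libitum risperidone (SD, n = 7) and 81.8 ± 2.91 CPM in control (SD, n = 7). Ad libitum libraries 1, 2 and 3 lay above every control library at 92.7, 92.6 and 93.0 CPM, and the other 4 lay at 78.2 to 81.5 CPM, inside the control range. The log2 fold change of Sh2b1 was −0.04 (95% interval −0.14 to 0.05) in pair-fed and 0.06 (−0.03 to 0.16) in ad libitum risperidone against control. Between the risperidone groups the interval lay below 0, with a log2 fold change of −0.11 (95% interval −0.21 to −0.01, unadjusted p = 0.0294, adjusted p = 0.324, edgeR). Without ad libitum libraries 1 and 3 this value was −0.06.

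Of the inhibitors, Socs3 (ENSMUSG00000053113, chromosome 11, 117966079 to 117970047, minus strand) was read in only 23 to 93 counts per library. It had 2.91, 3.86 and 5.20 CPM in pair-fed risperidone, 3.03, 3.39 and 4.27 CPM in ad libitum risperidone and 1.99, 3.20 and 4.22 CPM in control. The pair-fed libraries formed 3 values above every control library, between 4.68 and 5.20 CPM, and 3 near 3 CPM. The log2 fold change was 0.30 (95% interval −0.05 to 0.64, adjusted p = 0.823, edgeR) in pair-fed and 0.16 (−0.18 to 0.49, adjusted p = 0.729) in ad libitum risperidone against control. It stayed above 0 in each of the 27 other settings in both comparisons.

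Ptpn1 (ENSMUSG00000027540, chromosome 2, 167932057 to 167979385, plus strand) was the steadiest of the 10 genes in control, at 40.8 ± 0.628 CPM (SD, n = 7). It averaged 39.6 ± 2.58 CPM (SD, n = 6) in pair-fed risperidone and 41.5 ± 5.43 CPM (SD, n = 7) in ad libitum risperidone, where library 1 lay at 53.2 CPM and the others between 37.3 and 42.6 CPM. The log2 fold change was −0.04 (95% interval −0.18 to 0.09) in pair-fed and 0.03 (−0.10 to 0.15) in ad libitum risperidone against control, and −0.05 (−0.14 to 0.04) in ad libitum risperidone without libraries 1 and 3.

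Around these 10 genes, 82 further genes of the pathways were listed, and 76 of them passed the filter on low counts. Only A2m and Gadd45g, both from the list of genes named as induced by STAT3, passed the test, in opposite directions. Whether STAT3 induces them in this tissue was not tested. The promoter of Gadd45g, in a window of the same size as above, held 0 matches to the STAT letters, and A2m had no promoter entry. Of the 76 genes 0 were higher and 0 lower in pair-fed risperidone against control (0.0503% and 0.436% of all genes were), 1 was higher and 1 lower in ad libitum risperidone (0.0168% and 0.0447% of all genes), 0 were higher and 0 lower between the risperidone groups (0.112% and 0.285%), and 1 was higher and 1 lower in the mean of both (0.0224% and 0.307%). An unadjusted p under 0.05 was found for 15, 20, 20 and 16 of the 76 in the same order of comparisons, beside 6.66%, 13.1%, 13.5% and 7.82% of all genes. DESeq2 called 3 of the 76 in pair-fed risperidone against control and 1 between the risperidone groups, where limma-voom called 6 and 2. Over all genes DESeq2 called 132 and 169 in these 2 comparisons and limma-voom 223 and 139, against 87 and 71 with edgeR. The list was made with earlier results of these data known and is not independent evidence of a direction.

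Of the 15 genes listed as induced by STAT3, A2m, which codes for the protease inhibitor alpha-2-macroglobulin, was higher in risperidone. It had 14.5, 17.0 and 21.5 CPM in pair-fed risperidone, 11.7, 23.4 and 29.3 CPM in ad libitum risperidone and 11.1, 11.8 and 15.5 CPM in control. Above every control library lay 5 of 6 pair-fed and 6 of 7 ad libitum libraries, the exception in the ad libitum group being library 1 at 11.7 CPM. The log2 level of A2m rose by 0.83 (SE 0.143, adjusted p = 0.0343, edgeR) in ad libitum risperidone against control and by 0.66 (SE 0.128, adjusted p = 0.0203) in the mean of both groups. In pair-fed risperidone it was at 0.49 (95% interval 0.18 to 0.79, adjusted p = 0.290, edgeR), and the test was passed without ad libitum library 1 (0.49, adjusted p = 0.0127). A2m was at −0.34 between the risperidone groups (95% interval −0.65 to −0.04, adjusted p = 0.319, edgeR), and at −0.46 (adjusted p = 0.0263), past the test, without that library. Gadd45g, a growth arrest gene of the DNA damage response, averaged 15.7 ± 1.83 CPM (SD, n = 6) in pair-fed risperidone, 14.4 ± 1.56 CPM (SD, n = 7) for risperidone fed ad libitum, against 19.9 ± 2.29 CPM in control libraries (SD, n = 7), with a lowest control library at 17.6 CPM. It fell by 0.46 (SE 0.0829, adjusted p = 0.0343, edgeR) in ad libitum risperidone, with 7 of 7 libraries below every control library, where 0.224% of all genes had no overlap in this direction, and by 0.40 (SE 0.0712, adjusted p = 0.00717) in the mean of both. In pair-fed risperidone it was at −0.34 (95% interval −0.52 to −0.16, adjusted p = 0.105, edgeR), with 5 of 6 libraries below every control library, and it passed without ad libitum libraries 1 and 3 (adjusted p = 0.0304, edgeR).

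Both calls in ad libitum risperidone depended on which libraries were in the fit. That of A2m was lost without control library 1, 2, 3, 4, 5 or 6 and without ad libitum library 2, 6 or 7, with adjusted p values of 0.0525 to 0.0840 (edgeR). That of Gadd45g was lost without the same libraries and without ad libitum library 3, with adjusted p values of 0.0522 to 0.0943 (edgeR). Both calls were also lost in the fit of these 2 groups alone (0.0708 for A2m and 0.0673 for Gadd45g, edgeR) and with replicate number as a block (0.0648 for each). Without ad libitum library 1, the low exception for A2m, A2m was at 0.95 (adjusted p = 3.8e-05, edgeR) and Gadd45g at −0.48 (adjusted p = 0.0199). In the mean of both groups Gadd45g passed in 26 of 26 other settings and A2m in 22, the exceptions being the fits without control library 2, 4, 5 or 7 (adjusted p 0.0586 to 0.0629, edgeR). The other 13 genes of this list did not pass. Lcn2, which codes for the secreted protein lipocalin 2, had 0 to 0.965 CPM in pair-fed risperidone, 0.484 to 11.3 CPM in ad libitum risperidone and 0.0559 to 3.35 CPM in control, with the 2 highest values in ad libitum libraries 3 and 6. Its log2 fold change was 2.25 (95% interval 0.69 to 3.82, adjusted p = 0.235, edgeR) in ad libitum risperidone against control and −2.97 (−4.76 to −1.18, adjusted p = 0.157) between the risperidone groups, and 2.18 and −2.91 without ad libitum libraries 1 and 3. Icam1, an adhesion molecule of vessels, was at 0.88 (95% interval 0.36 to 1.39, adjusted p = 0.202, edgeR) in pair-fed risperidone. Osmr, the oncostatin M receptor gene, was at −0.47 (−0.77 to −0.16, adjusted p = 0.193) between the risperidone groups. The median of the 15 genes was −0.02 in pair-fed and 0.05 in ad libitum risperidone against control.

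**Figure D4:**
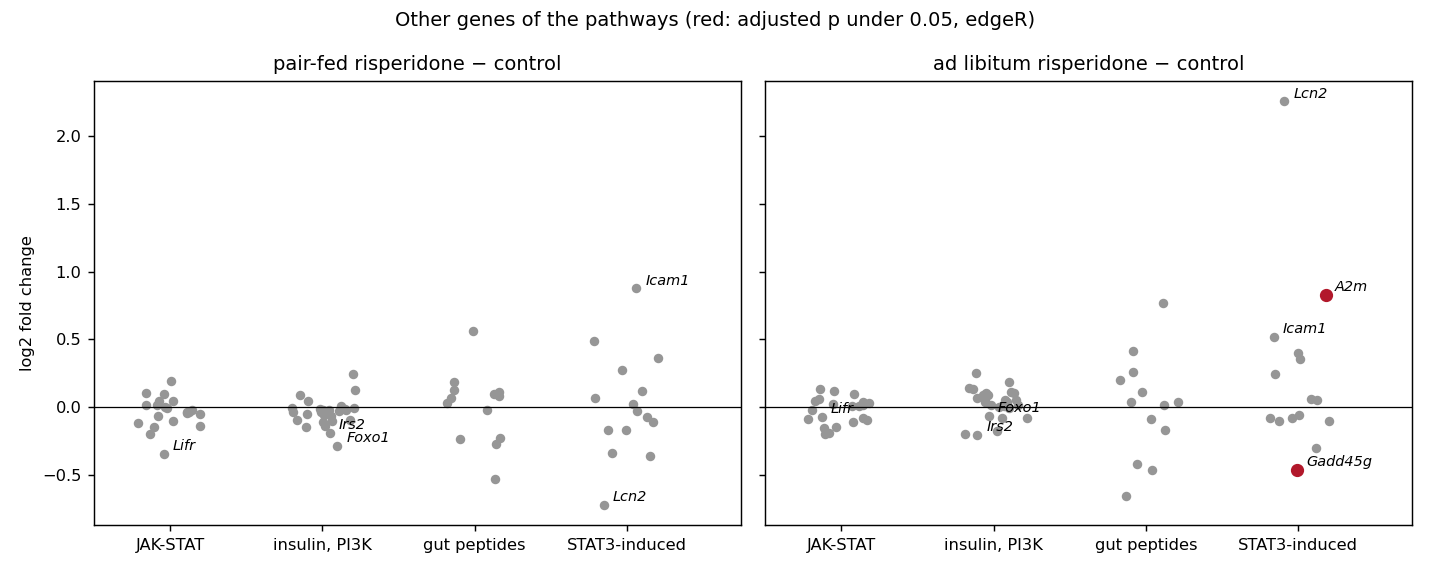
Log2 fold change of the 76 further pathway genes by list (points), in pair-fed risperidone against control and ad libitum risperidone against control. The genes past the test are drawn in red, A2m at 0.83 and Gadd45g at −0.46, both in the ad libitum comparison.

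Of the 27 genes of insulin receptor and PI3K signalling 0 passed the test in the 4 comparisons, with 4 at an unadjusted p under 0.05 in pair-fed (6.66% of all genes) and 5 in ad libitum risperidone against control (13.1%). Irs2, the receptor substrate through which insulin and leptin reach PI3K, had 102, 112 and 119 CPM in pair-fed risperidone, 98.4, 109 and 125 CPM in ad libitum risperidone and 120, 126 and 133 CPM in control. All 6 pair-fed libraries, where 0.861% of all genes had no overlap in this direction, and 5 of 7 ad libitum libraries lay below every control library, the exceptions being ad libitum libraries 1 and 3. Its log2 fold change was −0.19 (95% interval −0.30 to −0.07, adjusted p = 0.224, edgeR) in pair-fed risperidone, −0.20 (−0.31 to −0.09, adjusted p = 0.138) in ad libitum risperidone and −0.19 (−0.29 to −0.10, adjusted p = 0.0757) in the mean of both. Without ad libitum libraries 1 and 3 these became −0.19 (adjusted p = 0.0125, edgeR), −0.27 (adjusted p = 0.00391) and −0.23 (adjusted p = 0.000488), each past the threshold. The mean of both also passed without library 1 alone (adjusted p = 0.0150, edgeR) and without library 3 alone (adjusted p = 0.0155). In all, Irs2 passed in 3 of 27 other settings in pair-fed risperidone, 3 of 27 in ad libitum risperidone and 5 of 26 in the mean of both. Leaving out libraries 1 and 3 also raised the calls over all genes, from 87 to 250, from 11 to 48 and from 59 to 193 in the same order.

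Foxo1, a transcription factor that insulin signalling keeps out of the nucleus, averaged 31.3 ± 1.04 CPM (SD, n = 6) in pair-fed risperidone, 36.6 ± 5.14 CPM (SD, n = 7) for risperidone fed ad libitum, against 38.0 ± 1.76 CPM in control libraries (SD, n = 7). The 6 pair-fed libraries, with a highest value of 32.7 CPM, lay below every control library, where 0.861% of all genes had no overlap in this direction. On the log2 scale Foxo1 differed by −0.28 (95% interval −0.43 to −0.14, adjusted p = 0.103, edgeR) in pair-fed risperidone against control, −0.06 (−0.20 to 0.08) in ad libitum risperidone and −0.22 (−0.37 to −0.07, adjusted p = 0.204) between the risperidone groups. In pair-fed risperidone against control it passed in 7 of 27 other settings, among them the fit without the ad libitum group (adjusted p = 0.000259, edgeR) and that without ad libitum libraries 1 and 3 (adjusted p = 0.0138). Between the risperidone groups it passed without ad libitum library 6 (adjusted p = 0.0148, edgeR), the library lowest in Foxo1 at 27.3 CPM. Ad libitum libraries enter the comparison of pair-fed with control through the filter on low counts, the scaling and the shared estimate of the spread. Igf1r, the receptor gene of insulin-like growth factor 1, was at −0.23 (95% interval −0.36 to −0.09, adjusted p = 0.140, edgeR) between the risperidone groups, and at −0.13 without ad libitum libraries 1 and 3.

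Of the 21 genes of leptin receptor and JAK-STAT signalling 0 passed the test in the 4 comparisons, with 3 at an unadjusted p under 0.05 in pair-fed risperidone against control (6.66% of all genes), 3 in ad libitum risperidone (13.1%), 6 between the risperidone groups (13.5%) and 3 in the mean of both (7.82%). Lifr, a receptor subunit for leukaemia inhibitory factor and ciliary neurotrophic factor, had 38.2, 44.3 and 46.7 CPM in pair-fed risperidone, 43.7, 51.0 and 74.9 CPM in ad libitum risperidone and 50.4, 55.0 and 58.2 CPM in control. All 6 pair-fed libraries lay below every control library (0.861% of all genes had no overlap in this direction), and the highest value was that of ad libitum library 3. On the log2 scale Lifr differed by −0.34 (95% interval −0.52 to −0.16, adjusted p = 0.106, edgeR) in pair-fed risperidone against control and −0.28 (−0.46 to −0.10, adjusted p = 0.193) between the risperidone groups, where it was −0.21 without ad libitum libraries 1 and 3. The first of these passed in 7 of 27 other settings, with an adjusted p of 0.000224 in the fit without the ad libitum group and of 0.000208 without its libraries 1 and 3 (edgeR). Stat5b, which carries growth hormone and prolactin signals, was at −0.14 (95% interval −0.25 to −0.03, adjusted p = 0.491, edgeR) in pair-fed risperidone and −0.15 (−0.25 to −0.04, adjusted p = 0.241) in ad libitum risperidone. Sh2b2, the closest relative of Sh2b1, was at −0.19 (−0.32 to −0.06, adjusted p = 0.214) in ad libitum risperidone, and Ptpre, a phosphatase gene, at −0.16 (−0.28 to −0.04, adjusted p = 0.258) between the risperidone groups.

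Of the 19 genes of gut and pancreatic peptides, their receptors and accessory proteins, Gcgr, Gfral, Mboat4, Leap2, Gcg and Iapp did not pass the filter on low counts. Of the other 13, 0 passed the test in the 4 comparisons, with 3 at an unadjusted p under 0.05 in pair-fed (6.66% of all genes) and 4 in ad libitum risperidone against control (13.1%). Gpr83, a G-protein-coupled receptor that can pair with the ghrelin receptor, averaged 48.7 ± 4.64 CPM (SD, n = 6) in pair-fed risperidone, 53.2 ± 4.14 CPM (SD, n = 7) for risperidone fed ad libitum, against 44.5 ± 3.47 CPM in control libraries (SD, n = 7). On the log2 scale Gpr83 differed by 0.13 (95% interval −0.00 to 0.27, adjusted p = 0.767, edgeR) in pair-fed and 0.26 (0.13 to 0.39, adjusted p = 0.128) in ad libitum risperidone. Cckar, a cholecystokinin receptor gene, was at −0.27 (−0.52 to −0.03, adjusted p = 0.669) in pair-fed and −0.41 (−0.65 to −0.17, adjusted p = 0.174) in ad libitum risperidone. Ramp2, an accessory protein of calcitonin family receptors, was at −0.22 (−0.40 to −0.04, adjusted p = 0.560) in pair-fed risperidone. Between the risperidone groups Glp2r, the GLP-2 receptor gene, was at −0.95 (−1.59 to −0.30, adjusted p = 0.210, edgeR) and Dpp4, the protease that inactivates GLP-1, at 0.75 (0.08 to 1.43, adjusted p = 0.327), both at low levels. Glp2r averaged 0.845 CPM in pair-fed and 1.63 CPM in ad libitum risperidone, and Dpp4 averaged 2.47 CPM in pair-fed risperidone, with a median of 2.68 CPM against 1.30 CPM in ad libitum risperidone.

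For each of the 10 genes, the genes with the most similar levels were sought over the 20 libraries by Spearman's rho of log2 CPM among 13844 genes with a mean of at least 1 CPM. These values describe likeness across libraries that share group, depth and dissection, and carry no test. Calcr was most like Asb4 (rho 0.949, and 0.930 over the 18 libraries without ad libitum libraries 1 and 3), Atic (0.917) and Sytl4 (0.892). Asb4 lies on chromosome 6 from 5383386 to 5433022, the chromosome that also holds Calcr. Asb4 had 49.1 ± 6.97 CPM (SD, n = 6) in pair-fed risperidone, 43.8 ± 5.14 CPM (SD, n = 7) for risperidone fed ad libitum, against 53.8 ± 4.34 CPM in control libraries (SD, n = 7), and in ad libitum risperidone against control it differed by −0.29 on the log2 scale (95% interval −0.46 to −0.12, adjusted p = 0.174, edgeR). Sytl4, a granule docking gene, was the 1 gene of these 3 past the test in that comparison, at −0.64 (SE 0.116, adjusted p = 0.0346, edgeR). It passed in 15 of 27 other settings and was lost with replicate number as a block and without any 1 of the 7 control libraries or ad libitum library 2, 3, 6 or 7 (adjusted p 0.0522 to 0.0968, edgeR).

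**Figure D5:**
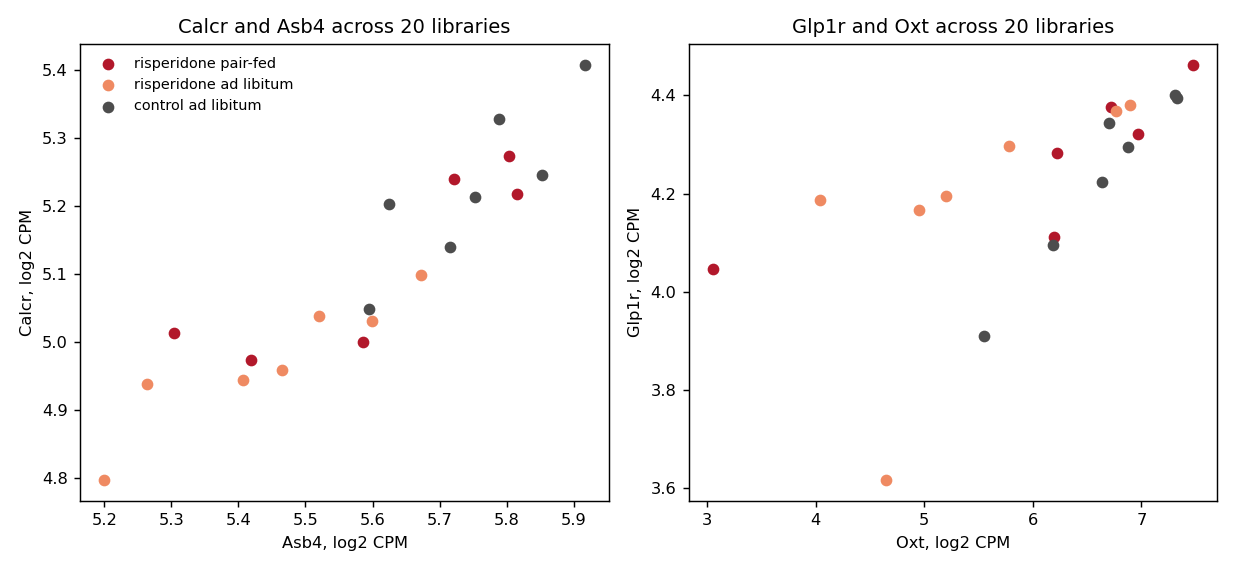
Log2 CPM of Calcr against Asb4 (left) and of Glp1r against Oxt (right) in the 20 libraries, with pair-fed risperidone, ad libitum risperidone and control libraries in different colours. Calcr follows Asb4 with a Spearman rho of 0.949, and Glp1r follows Oxt with a rho of 0.871.

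Glp1r was most like Oxt, which codes for oxytocin (rho 0.871, and 0.847 over 18 libraries), Onecut3 (0.857) and Vax1 (0.842), and the same 3 genes came first over the 18 libraries. Oxt had 8.20, 90.1 and 178 CPM in pair-fed risperidone, 16.4, 36.6 and 119 CPM in ad libitum risperidone and 46.8, 104 and 160 CPM in control, so that Glp1r, with a spread of 12.2 to 21.9 CPM, moved over a far smaller range. With the group means removed, Glp1r had a Pearson r of 0.739 with the mean log2 level of the 7 paraventricular and supraoptic markers, from the nuclei that hold oxytocin and vasopressin neurons (permutation p = 1e-05, the smallest that 100000 permutations can give, adjusted p = 0.0007 over 140 pairs). Spearman's rho was 0.886 (permutation p = 1e-05, adjusted p = 0.0014), and r was 0.750 without the 2 libraries farthest from the median. With the 12 hypothalamus markers, 5 of which stand in both lists, r was 0.817 (permutation p = 1e-05, adjusted p = 0.0007) and rho 0.844 (permutation p = 4e-05, adjusted p = 0.0028), with r = 0.739 without the 2 farthest. Oxt, the gene most like Glp1r in these same libraries, is a member of both lists. The relations with the lists are thus not independent of that likeness, and they too were examined after the values had been seen. Among the 45 pairs of the 10 genes, Glp1r and Calcr had the highest Pearson r, 0.690 (permutation p = 0.001, adjusted p = 0.045), with a rho of 0.567 (permutation p = 0.013, adjusted p = 0.185) and r = 0.728 without the 2 farthest.

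Among the other 8 genes, Stat3 was most like Atp11a (rho 0.886), Fgfr1 (0.863) and Gaa (0.815), and Ghsr most like Phka1 (0.847), Acsl3 (0.776) and Col4a3 (0.774), with Atp11a and Phka1 also first over 18 libraries. Jak2 was most like Cep83os (0.857), Cggbp1 (0.836) and D3Ertd254e (0.826), and its r with endothelium markers was −0.747 (permutation p = 0.00084, adjusted p = 0.0392), with a rho of −0.705 (permutation p = 0.00191, adjusted p = 0.0891) and r = −0.579 without the 2 farthest libraries. Insr was most like Adam19 (0.743), Wnk3 (0.738) and Rev1 (0.737), and Lepr most like Pstpip1 (0.783), Ncoa3 (0.729) and Notch2 (0.728). Sh2b1 was most like Armc5 (0.789), Wdpcp (0.746) and Med15 (0.737), Socs3 most like Lsm7 (0.756), Magohb (0.716) and Ptn (0.714), and Ptpn1 most like Fut11 (0.759), Krba1 (0.728) and Zfp97 (0.716). For Lepr, Jak2, Sh2b1, Socs3 and Ptpn1 another gene came first over the 18 libraries.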

How the data were processed

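Per the labels' protocols, RNA was isolated with a column kit and read from both ends at 150 bp on a DNBseq machine. The authors deposited raw counts of reads per gene, with STAR, featureCounts, DESeq2, GRCm38 and mm10 named, per the submitters' processing notes. For tool versions, annotation release and strand setting: not given in the sources used here. Genes were matched to GENCODE M21 (55230 matched, 241 not).

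Counts were tested with the quasi-likelihood test of edgeR 4.0.16 (R 4.3.3) in 1 model of 20 libraries with a coefficient per group, TMM scaling and filterByExpr at a minimum count of 10. Tests were two-sided, with Benjamini-Hochberg adjustment over all 17893 genes tested and a threshold of 0.05. Fold changes are log2 values with 95% intervals. Log2 CPM used a prior count of 2. The model was run on simulated counts with 1 spread for all genes and changes set in the pair-fed group only. No simulated library had the markers or ribosomal RNA share of ad libitum libraries 1 and 3, so the run does not cover their part. Alternatives were RLE size factors, no filter, DESeq2 1.42.0, limma-voom (3.58.1), the groups compared alone, replicate number as a block, leaving out each library, and leaving out ad libitum risperidone libraries 1 and 3.

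The members and lists were chosen with earlier results of these data known. Named were the 10 members, pathway genes past the test or among the 2 smallest p per list and comparison, and the 3 genes most like each member, leaving out predicted genes and pseudogenes. Of the genes so named, 1 is not reported here. Relations with 14 marker lists and among members used 100000 permutations within groups. The 57 same-group pairs of libraries all differed beyond sampling noise (lowest chi-square per degree of freedom 2.64).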

Additional observations from a re-analysis of the deposited data

Results flagged for a closer look

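Of 30 combinations of gene and group, 6 held 1 library apart from the rest of its group, by the gap to its nearest neighbour relative to the range, where chance gives about 1 in 20. In pair-fed risperidone library 3, which had the lowest paraventricular and supraoptic markers (118 CPM), Ghsr stood at 11.6 CPM, against 6.75 CPM in the next library. In ad libitum risperidone library 1, which had the high cortex, hippocampus and amygdala markers, Ptpn1 stood high at 53.2 CPM (next 42.6), Jak2 high at 45.1 CPM (next 40.2) and Glp1r low at 12.2 CPM (next 17.8). In ad libitum risperidone library 3, which had the fewest counts and the highest ribosomal RNA share, Insr stood high at 81.1 CPM (next 63.3) and Lepr high at 9.58 CPM (next 6.89), the last from 68 counts. The part of the markers, depth and ribosomal RNA in these values was not tested.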

How the results depend on the processing

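Over 27 other settings, 997 values of the 10 genes kept their direction and their side of the threshold, 72 turned in sign and 1 passed the threshold, that of Calcr in ad libitum risperidone with DESeq2 (−0.2545, adjusted p = 0.0333), the 1 of 10 genes called there. The values that turned in sign were all close to 0. With voom, Lepr stood at 0.0071 in pair-fed and −0.0748 in ad libitum risperidone against control, 0.0819 between the risperidone groups and −0.0339 in the mean of both, Ptpn1 at −0.0342 in ad libitum risperidone, and Glp1r at 0.0269 and Sh2b1 at −0.0107 in the mean of both. Without ad libitum libraries 1 and 3, Lepr stood at −0.0536 in ad libitum risperidone, 0.0395 between the groups and −0.0338 in the mean of both, Ptpn1 at −0.0477 in ad libitum risperidone and 0.0016 between the groups, and Glp1r at 0.012 and Sh2b1 at −0.0154 in the mean of both. Lepr in the mean of both stood at −0.0042 with no filter.

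Leaving out 1 library, these values turned in sign, with the ranges given. In pair-fed risperidone, Glp1r ranged from −0.0216 to 0.0702, Insr from −0.0335 to 0.017, Jak2 from −0.0118 to 0.0417, Lepr from −0.0974 to 0.0455. In ad libitum risperidone, Glp1r ranged from −0.111 to 0.016, Lepr from −0.0851 to 0.0727, Ptpn1 from −0.0434 to 0.0522. Between the risperidone groups, Lepr ranged from −0.1125 to 0.0709. In the mean of both, Glp1r ranged from −0.0663 to 0.0224, Jak2 from −0.0247 to 0.0201, Lepr from −0.0497 to 0.0591, Ptpn1 from −0.0437 to 0.0042, Sh2b1 from −0.0049 to 0.0205.

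The count of all genes past the test was 132 with DESeq2, 223 with voom, 245 in the groups compared alone and 250 without libraries 1 and 3 in pair-fed risperidone against control (66 to 166 leaving out 1 library, the most without ad libitum library 1 here and in the other comparisons). In ad libitum risperidone it was 112, 51, 3 and 48 (0 to 35). Between the risperidone groups it was 169, 139, 31 and 142 (39 to 130), and in the mean of both, 97 with DESeq2, 151 with voom and 193 without libraries 1 and 3 (36 to 99). Of the 76 pathway genes, pair-fed risperidone had 1 call with no filter, 3 with DESeq2, 6 with voom, 5 in the groups compared alone and 5 without libraries 1 and 3 (0 to 3 leaving out 1 library). Ad libitum risperidone had 4 with DESeq2 and 0 in the groups compared alone (0 to 2). Between the groups there were 1 with DESeq2, 2 with voom and 2 without libraries 1 and 3 (0 to 2), and in the mean of both 4 with voom and 4 without libraries 1 and 3 (1 to 4). The mean of both uses all libraries, so that no fit to the groups compared alone exists for it. The cause of these shifts was not tested.

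Replicate numbers recur across groups. The 19 pairs of libraries with the same number had correlations of −0.158 to 0.304, 2 of them over 0.1. The 114 pairs with different numbers had correlations of −0.294 to 0.399, 16 of them over 0.1. These values cannot tell whether the numbers pair the samples, since a pairing need not show in a correlation over all genes. With replicate number as a block, 65 genes passed in pair-fed and 1 in ad libitum risperidone against control, 48 between the groups and 45 in the mean of both, with 0 pathway genes in ad libitum risperidone. Under this block Lepr stood at −0.0107 and Jak2 at 0.0028 in the mean of both.

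Socs3, Lepr and Ghsr had 23 to 216 counts per library and the widest intervals, and Ghsr also had the highest biological coefficient of variation of the 10 genes.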
